A study of Macaca fuscata with 18 samples.

Results

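Gene expression after ischemia was compared with sham in the A3 fragments of the macaque SVZa, the neurogenic tissue along the anterior horn of the lateral ventricle. The members are the 6 libraries whose title starts with A3, of 18 libraries in the series, with 1 library from each of 6 monkeys. MK501, MK504 and MK508 were sham-operated controls, and MK503, MK506 and MK507 were postischemic. All were Japanese macaques (Macaca fuscata) of 4 to 6 years, and the labels give no transgene and no treatment beside the surgery. The study used females and males, and the sources do not give the sex of each animal. In the ischemic monkeys the brachiocephalic and left subclavian arteries had been clipped for 18 min, while the sham monkeys were operated on without clipping, and tissue was taken 7 days after either operation. The A number was read as 1 of the 3 adjacent fragments cut from the striatal side of the right ventricle of each monkey, and neither the labels nor the methods say where along the ventricle A3 lay. Each sham monkey was set beside an ischemic monkey as 1 of 3 pairs (MK504 with MK503, MK501 with MK507, MK508 with MK506). Neither the labels nor the methods name these pairs, which were inferred from shared monkey numbers in a supplementary table of the study. Each monkey is 1 animal, so n = 3 per group throughout.

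The SVZ keeps neural stem cells with features of astrocytes, which give rise to fast-dividing progenitors and then to migrating neuroblasts, many of them expressing DLX transcription factors of the interneuron lineage. The niche is bordered by ependymal cells that carry motile cilia towards the ventricle and, on its other side, by the striatum, whose projection neurons, interneurons and myelinated fibre bundles lie close to it. Global ischemia stops the blood supply for a short time, and in the days that follow glia, vessels and progenitors can react. A thin dissected strip can hold different shares of these layers. In such bulk tissue a lower value can come from fewer cells of a type or from less RNA per cell, and these cannot be told apart.

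The A3 libraries held 27419647 to 42368245 counts in sham and 18076257 to 60492817 in ischemia. Library pairs of 1 group differed by far more than sampling noise allows, with chi-square values of 35.55 to 565.4 for each degree of freedom, so none was a copy of another. Some libraries stood apart. In sham MK504 POLE2 took 8.21% and KLHDC1 2.9% of counts, against 0.00075% and 0.00341% or less in the other A3 libraries. The noncoding RNA MALAT1 took 1.9% in MK504 and 1.98% in its partner MK503, against 0.0672 to 0.304% elsewhere. Sham MK508 was rich in myelin transcripts, with MBP at 2.67% of its counts, and sham MK501 held 2320 CPM (counts scaled to a common library size) of TTR, a choroid plexus transcript, where no other A3 library exceeded 13.3. XIST was low in both MK508 and MK506 (4.06 and 2.92 CPM) and at 1793 CPM or more in the other A3 libraries, so it divided the pairs and not the groups. Of the markers of the labelled tissue, 17 of 18 listed progenitor and neuroblast genes and all 21 genes of striatal projection neurons passed the filter on low counts. For some lists and genes, but not all, results are also given without 1 of these libraries.

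No gene passed an adjusted p under 0.05 in A3. The paired edgeR quasi-likelihood test was run on 16390 genes, and the smallest adjusted p was 0.843. At an unadjusted p under 0.05, called nominal here, 3.09% of genes were higher and 1.89% lower after ischemia, together 816 genes (4.98%). Without the pairs as a block, 84 were higher and 24 lower. With a log2 difference above 0.5 as well, 472 genes (2.88%) were higher and 264 (1.61%) lower. The 2 groups did not overlap, with every ischemic library above or below every sham library, for 298 genes (1.82%) on the higher side and 219 (1.34%) on the lower side. The median log2 difference of all genes was -0.01. The differences of the 3 pairs were weakly related across genes (r = 0.18, -0.09 and 0.20 over 16390 genes, which are not independent replicates). The same test in the other fragments also called 0 genes, with 22.1% of genes at a nominal p in A1 and 5.42% in A2. DESeq2 on the same A3 counts called 34 genes higher and 9 lower (smallest adjusted p 4.85e-08), whereas limma voom called 0. In simulated counts of the same design edgeR recovered 56 of 66 genes planted at a log2 change of 2, 11 of 67 at 1 and 1 of 67 at 0.5. These counts were drawn from the fitted spread of each gene, with the same planted change in every pair. They may vary less than the real counts, so the recovery does not tell how many such genes would be called here. Scaling by library totals in place of TMM moved the median of all genes to 0.12 and the share of nominal genes that were higher from 62% to 91.3%. Every difference below is therefore relative to the TMM scale.

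CPM values below follow the order MK504, MK501 and MK508 for sham and, for ischemia, the order of their partners, MK503, MK507 and MK506. They are not divided by transcript length, so they compare libraries and not genes.

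Among the 10 genes with the smallest p that were higher in all 3 pairs, several are known from neurons. ZCCHC12, a zinc finger protein known as a transcriptional coactivator in BMP signalling, stood at 21.4, 38.2 and 13.6 CPM in sham and at 73.8, 114 and 58.3 CPM in ischemia. The lowest ischemic library lay above the highest sham library. The log2 difference was 1.82 (SE 0.18, adjusted p = 0.843). SLIT1, a secreted guidance cue that repels axons and neuroblasts, measured 37.8, 22.0 and 15.8 CPM in sham and 98.3, 96.0 and 70.3 CPM in ischemia. Its difference was 1.89 (SE 0.22), again with no overlap. Both genes had been picked for 1 direction in all 3 pairs. They kept it under every alternative run, at 1.66 to 1.95 for ZCCHC12 and 1.74 to 2.12 for SLIT1.

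VSTM2A, an immunoglobulin-domain protein, measured 14.0, 7.93 and 4.75 CPM in sham and 29.7, 31.1 and 26.9 CPM in ischemia, a log2 difference of 1.85 (SE 0.32). The 3 ischemic libraries lay close together and above all sham libraries. GABBR2, a subunit of the metabotropic GABA-B receptor, measured 30.9, 24.6 and 22.1 CPM in sham against 57.1, 52.6 and 40.9 CPM, a difference of 0.96 (SE 0.16). MPPED1 was at 1.33, 3.05 and 2.37 CPM in sham and 6.68, 12.9 and 7.26 CPM in ischemia, a difference of 1.99 (SE 0.29). CXorf57 was at 25.3, 17.2 and 15.1 CPM against 53.2, 35.4 and 30.7 CPM, a difference of 1.05 (SE 0.16). None of these 4 genes overlapped between the groups.

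In the other 4 of these 10 genes the pairs differed more in level than the groups did. The calcium pump gene ATP2B4 measured 110, 53.5 and 38.7 CPM in sham and 274, 135 and 73.1 CPM in ischemia, a log2 difference of 1.19 (SE 0.18). Each ischemic library exceeded its own partner, but MK506 was below sham MK504. PDE1A, a calmodulin-dependent phosphodiesterase, was at 8.22, 1.23 and 1.19 CPM against 24.0, 6.03 and 3.79 CPM, a difference of 1.82 (SE 0.28). PRDM12 (difference 2.20) and the insulin receptor substrate IRS4 (2.58) were low, and IRS4 rested on 31, 6 and 2 reads in sham and 138, 41 and 22 in ischemia. Of these 10 genes, the differences of ZCCHC12 were -0.22 in A1 and 0.19 in A2, those of SLIT1 -0.39 and 0.58, and those of GABBR2 0.39 and 0.14. Since the genes were picked for their p in A3, a larger difference there than in the other fragments is partly built in.

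**Figure D1:**
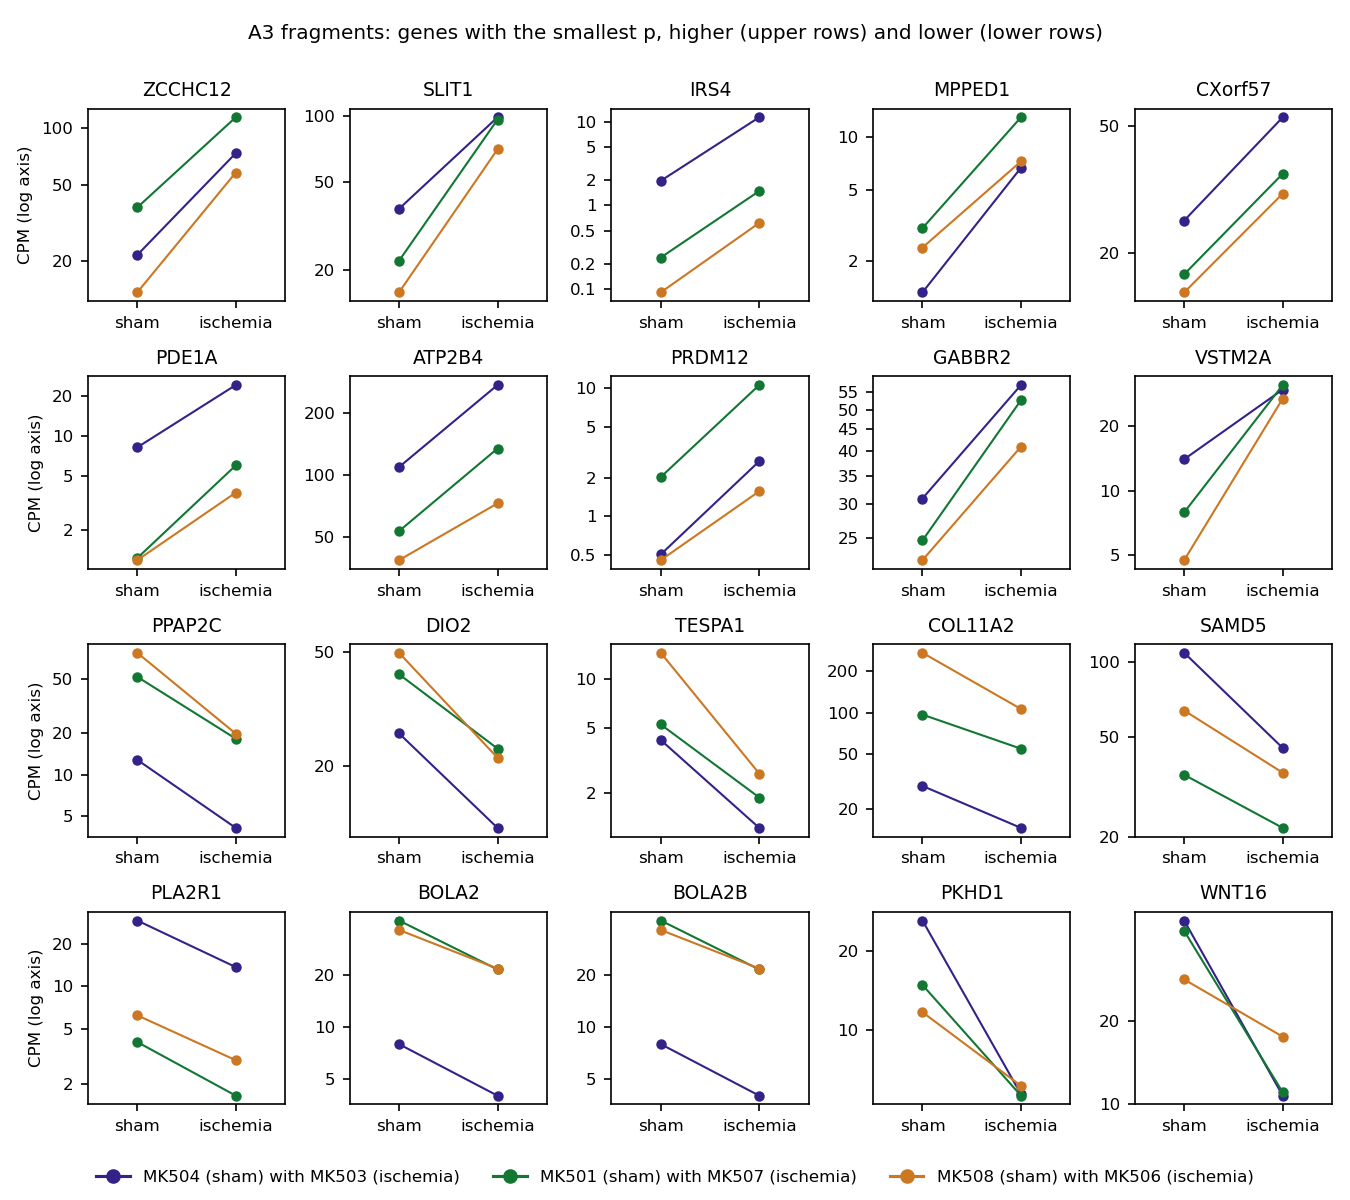
CPM (log axis) of the 10 higher and the 10 lower genes with the smallest p in the A3 fragments, 1 panel per gene, with sham on the left and ischemia on the right of each panel and a line for each of the 3 monkey pairs. Every line slopes upwards in the upper rows and downwards in the lower rows, and for ZCCHC12, SLIT1 and WNT16 the groups do not overlap. The axes differ between panels.

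Of the genes called by DESeq2 but outside these 10, 3 were chosen after their values were seen, to show their levels by library. HTR2C, a serotonin receptor, measured 12.2, 30.3 and 1.46 CPM in sham and 116, 64.6 and 32.8 CPM in ischemia, a log2 difference of 2.87 in edgeR (SE 0.68, adjusted p in DESeq2 1.70e-04). Its ischemic libraries all exceeded the sham libraries, though MK506 by little over MK501. MAGEL2, a gene imprinted in humans and mice, stood at 2.91, 4.84 and 3.84 CPM in sham and at 16.0, 17.8 and 8.21 CPM in ischemia (1.80, SE 0.34). SLC6A11, a GABA transporter known mainly from astrocytes, was at 25.2, 4.80 and 4.02 CPM against 39.5, 24.1 and 14.8 CPM (1.61, SE 0.37), with overlap through MK504.

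On the lower side PPAP2C, a lipid phosphate phosphatase, measured 12.8, 52.0 and 77.9 CPM in sham and 4.08, 18.3 and 19.9 CPM in ischemia. Each ischemic library was below its partner, and the groups overlapped through the low level of MK504. The log2 difference was -1.71 (SE 0.19), while in A1 and A2 it was 1.31 and 0.59. DIO2, the deiodinase that activates thyroid hormone in astrocytes, measured 26.0, 41.8 and 49.6 CPM in sham and 12.2, 23.1 and 21.4 CPM in ischemia. Its difference of -1.05 (SE 0.17) had no overlap, and it was -0.73 in A1 and -1.24 in A2.

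WNT16, a WNT ligand, was at 46.2, 42.4 and 28.2 CPM in sham and at 10.7, 11.0 and 17.5 CPM in ischemia (log2 difference -1.58, SE 0.33). PKHD1, which encodes fibrocystin of primary cilia, was at 26.0, 14.8 and 11.7 CPM against 5.71, 5.64 and 6.14 CPM (-1.49, SE 0.31). TESPA1 was at 4.24, 5.28 and 14.5 CPM against 1.22, 1.88 and 2.64 CPM (-1.93, SE 0.33). All 3 genes were lower without overlap, and all 3 were lower in A1 and A2 too, at -2.27 and -1.46 for WNT16, -2.95 and -1.60 for PKHD1 and -1.07 and -2.02 for TESPA1.

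The collagen gene COL11A2 measured 29.5, 96.9 and 272 CPM in sham against 14.7, 54.9 and 106 CPM in ischemia, a log2 difference of -1.06 (SE 0.19). Levels followed the pair more than the group, with pair MK508 and MK506 highest in both. SAMD5 (-0.93) and the phospholipase receptor gene PLA2R1 (-1.14) were likewise lower in every pair with overlapping groups. BOLA2 and BOLA2B had the same count in each library (-0.89), so these near-identical copies cannot be counted apart and stand for 1 measurement.

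Gene lists were described by how many members were called and by their median, beside those of all genes, of which 48% had a higher and 52% a lower value. At a nominal p 3.09% of all genes were higher and 1.89% lower, which is the share to read each list count in A3 against. The pair medians were above 0 in each pair for progenitors and neuroblasts, ependymal genes and the BMP and WNT pathways. They were below 0 in each pair for the respiratory chain, mitochondrial ribosomal proteins, proteasome (-0.13, -0.25 and -0.09), pericytes and smooth muscle, and microglia. Ependymal and microglia genes did so by unequal amounts, and the WNT pathway was close to 0 in pair MK508 and MK506 (0.172, 0.193 and 0.007). For myelin, striatal neurons, astrocytes and MHC class II the pairs differed in sign.

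**Figure D2:**
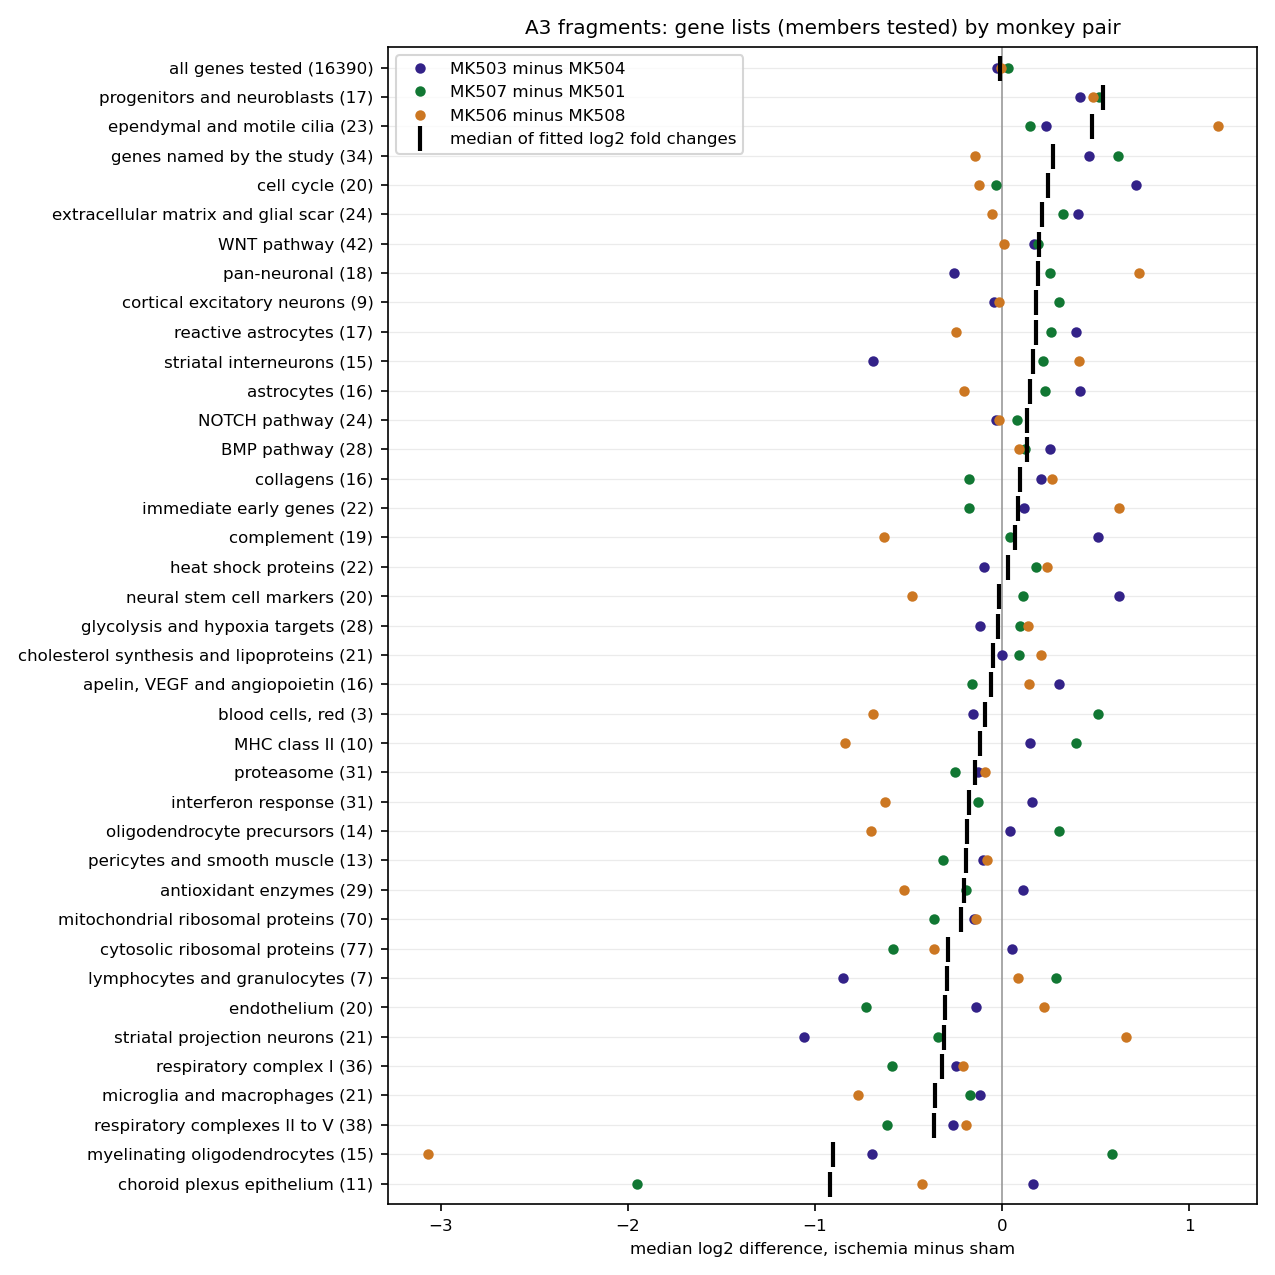
Median log2 difference (ischemia minus sham) of the genes of each list in the 3 monkey pairs of A3 (coloured dots) and the median of the fitted log2 fold changes (black bars), with the number of members tested in brackets. The dots of progenitors and neuroblasts lie at 0.41 to 0.52 and those of respiratory complex I at -0.59 to -0.21, while those of myelinating oligodendrocytes spread from -3.07 to 0.59.

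Genes of progenitors and neuroblasts had higher values in ischemic A3 tissue. Of 18 listed genes 17 were tested, 16 had a higher value and 7 were higher at a nominal p, against 3.09% of all genes, with none lower. The median log2 difference was 0.54, with 0.41, 0.52 and 0.49 in the 3 pairs, and 12 members were higher in all pairs, against 13.2% of all genes. No member passed the adjusted threshold. The median was 0.44 to 0.60 with any 1 library left out, and the nominal count then 3 to 6, with 3 called without sham MK501, MK503 or MK507. It was 0.44 with 4 members called without sham MK504, and 0.45 with 6 called without sham MK508. Without the pairs as a block 2 members had a nominal p.

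The homeobox factors DLX1 and DLX2 of the interneuron lineage had the smallest p of this list, and SP8 the largest difference (1.58). DLX1 measured 4.87, 9.56 and 5.43 CPM in sham and 15.7, 15.1 and 10.5 CPM in ischemia (log2 difference 1.09, SE 0.29). DLX2 was low but without overlap, at 0.695, 1.31 and 0.502 CPM against 1.63, 3.29 and 1.71 CPM (1.43, SE 0.38). The zinc finger factors SP8 and SP9, which act in olfactory bulb interneuron precursors in mice, were also above sham without overlap. SP8 was at 1.39, 0.833 and 1.10 CPM against 8.15, 2.64 and 1.57 CPM, and SP9 at 3.10, 3.41 and 2.06 CPM against 4.16, 6.90 and 6.42 CPM. Pair MK504 and MK503 differed most in SP8 and least in SP9.

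SOX4 and SOX11, factors of newborn neurons, were higher in each pair while the groups overlapped. SOX4 measured 39.9, 22.1 and 23.5 CPM in sham and 88.6, 31.6 and 28.2 CPM in ischemia (0.64, SE 0.22). STMN2, a microtubule regulator of growing neurites, was at 101, 69.4 and 47.0 CPM against 108, 110 and 124 CPM (0.72, SE 0.28), higher in all ischemic libraries. It is also a member of the pan-neuronal list below, so the lists are not separate sets. DCX, the microtubule protein that marks migrating neuroblasts, was higher in each pair but not at a nominal p (111, 42.8 and 39.5 CPM against 143, 44.8 and 55.3 CPM, difference 0.31, SE 0.17). In A1 and A2 the median of the list was 0.21 and 0.42. Of its 17 members 1 had an ischemia difference in A3 apart from the mean of A1 and A2 at a nominal p. This was GAD1 (difference between fragments 1.13, SE 0.42), and the count was 0 to 5 when 1 monkey was left out.

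**Figure D3:**
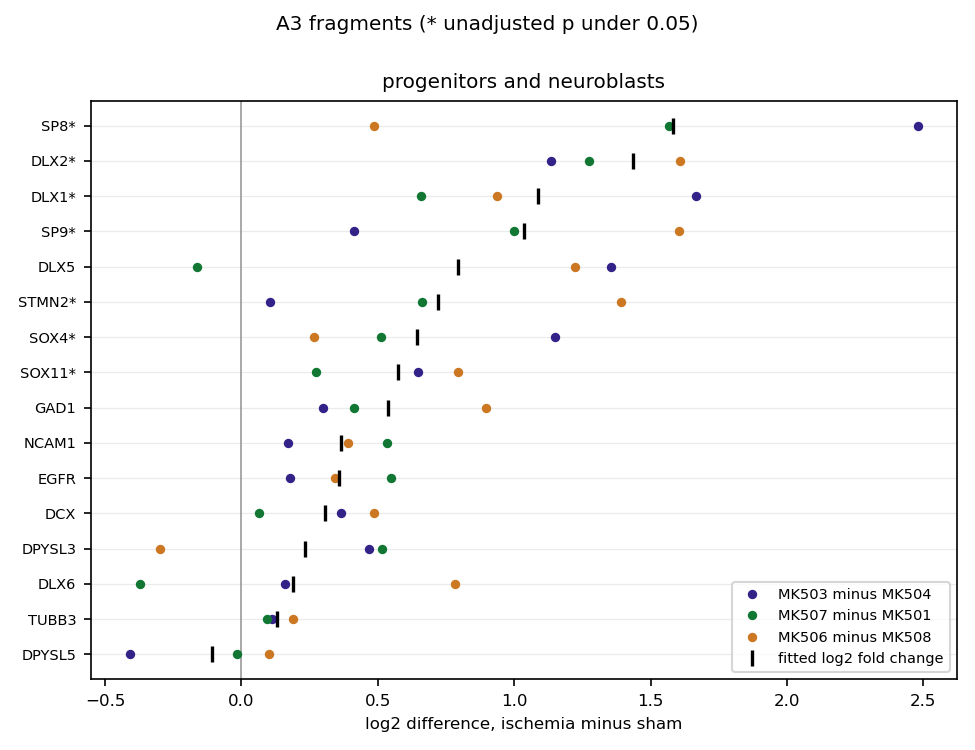
Log2 difference (ischemia minus sham) of 16 tested genes of progenitors and neuroblasts in the 3 monkey pairs of A3 (coloured dots), with the fitted log2 fold change (black bars) and a star for an unadjusted p under 0.05. Of the 7 starred genes, SP8 and DLX2 lie farthest to the right at 1.58 and 1.43, and DPYSL3 has its MK506 dot below 0.

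Genes of mature neurons differed by subtype and by pair. Of 18 pan-neuronal genes 14 had a higher value and 3 were higher at a nominal p (median 0.19), but the pairs gave -0.26, 0.26 and 0.73, and without sham MK508 the median was 0.01. VSNL1, a neuronal calcium sensor, was clear of overlap at 21.4, 59.4 and 40.3 CPM in sham and 138, 144 and 61.2 CPM in ischemia (1.51, SE 0.42). ELAVL4, an RNA-binding protein of neurons, was at 4.11, 2.30 and 2.33 CPM against 9.86, 7.12 and 4.57 CPM (1.29, SE 0.28).

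The 21 genes of striatal projection neurons had a median of -0.31 with 1 member higher at a nominal p (FOXP2, 0.97), and the pairs gave -1.06, -0.35 and 0.66. Without sham MK504 the median was 0.13, and without sham MK508 it was -0.78 with 11 members lower at a nominal p. Of 15 striatal interneuron genes 9 had a higher and 6 a lower value, with 2 higher and 1 lower at a nominal p. Their median was 0.16, and the pairs gave -0.69, 0.22 and 0.41. Among them SST (somatostatin) was higher in each pair (3.54, 88.6 and 54.5 CPM against 5.95, 104 and 88.3 CPM, difference 0.55, SE 0.18), although its level in pair MK504 and MK503 was far below the others. CALB2, the calretinin gene, was at 2.72, 6.11 and 8.22 CPM against 5.62, 14.1 and 9.70 CPM (0.82, SE 0.30). PVALB was at 4.84 CPM or less in all libraries.

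Of the immediate early genes, which neurons and glia switch on within minutes of stimulation, 1 of 22 had a nominal p. FOS measured 12.2, 24.0 and 11.0 CPM in sham and 43.9, 26.6 and 26.8 CPM in ischemia (1.09, SE 0.36), with every ischemic library above sham. The median of the list was 0.08 and turned to -0.11 without sham MK508, and it was -0.535 in A1 and -0.493 in A2. The test between fragments described below compares ischemia differences and not levels. At a nominal p this difference was higher in A3 for 4.73% of all genes and lower for 8.56%. Of these 22 genes 7 had a higher ischemia difference in A3 than in A1 and A2 and 2 a lower one. These were 3 and 0 without MK506, 4 and 0 without MK508, 4 and 1 without MK504, 5 and 0 without MK503, and 4 and 0 against A2 alone.

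Genes of oxidative phosphorylation had lower values. The chain passes electrons from NADH through complex I to oxygen, and ATP synthase uses the resulting gradient. Of 36 subunits of complex I 34 had a lower value and 10 were lower at a nominal p, against 1.89% of all genes, with a median of -0.32. Of 38 subunits of complexes II to V 37 had a lower value and 8 a nominal p, with a median of -0.36. In all 3 pairs 22 and 26 of them were lower, against 14.2% of all genes. The pair medians were -0.25, -0.59 and -0.21 for complex I and -0.26, -0.62 and -0.20 for the others, so pair MK501 and MK507 differed most. Without sham MK501, or without MK507, 0 members of either list had a nominal p, and the medians were -0.22 and -0.25 without MK501. Without the pair block 0 had a nominal p, and on library totals 2 and 0 did, with medians of -0.19 and -0.23.

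Levels of these genes in MK504 and MK503 were below those of the other pairs. NDUFB1, an accessory subunit of complex I, measured 37.7, 213 and 218 CPM in sham and 29.7, 114 and 125 CPM in ischemia (-0.69, SE 0.20). NDUFS3, a core subunit, was at 102, 330 and 239 CPM against 63.4, 163 and 199 CPM (-0.65, SE 0.22). SDHA, the catalytic subunit of complex II, was at 59.0, 106 and 106 CPM against 48.5, 76.6 and 72.1 CPM (-0.44, SE 0.16), and ATP5D of ATP synthase at 31.2, 242 and 171 CPM against 22.1, 142 and 134 CPM (-0.54, SE 0.18). Because of the low MK504 the groups overlapped for all 4 genes. Complex I had a median of -0.38 in A1 and -0.70 in A2.

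**Figure D4:**
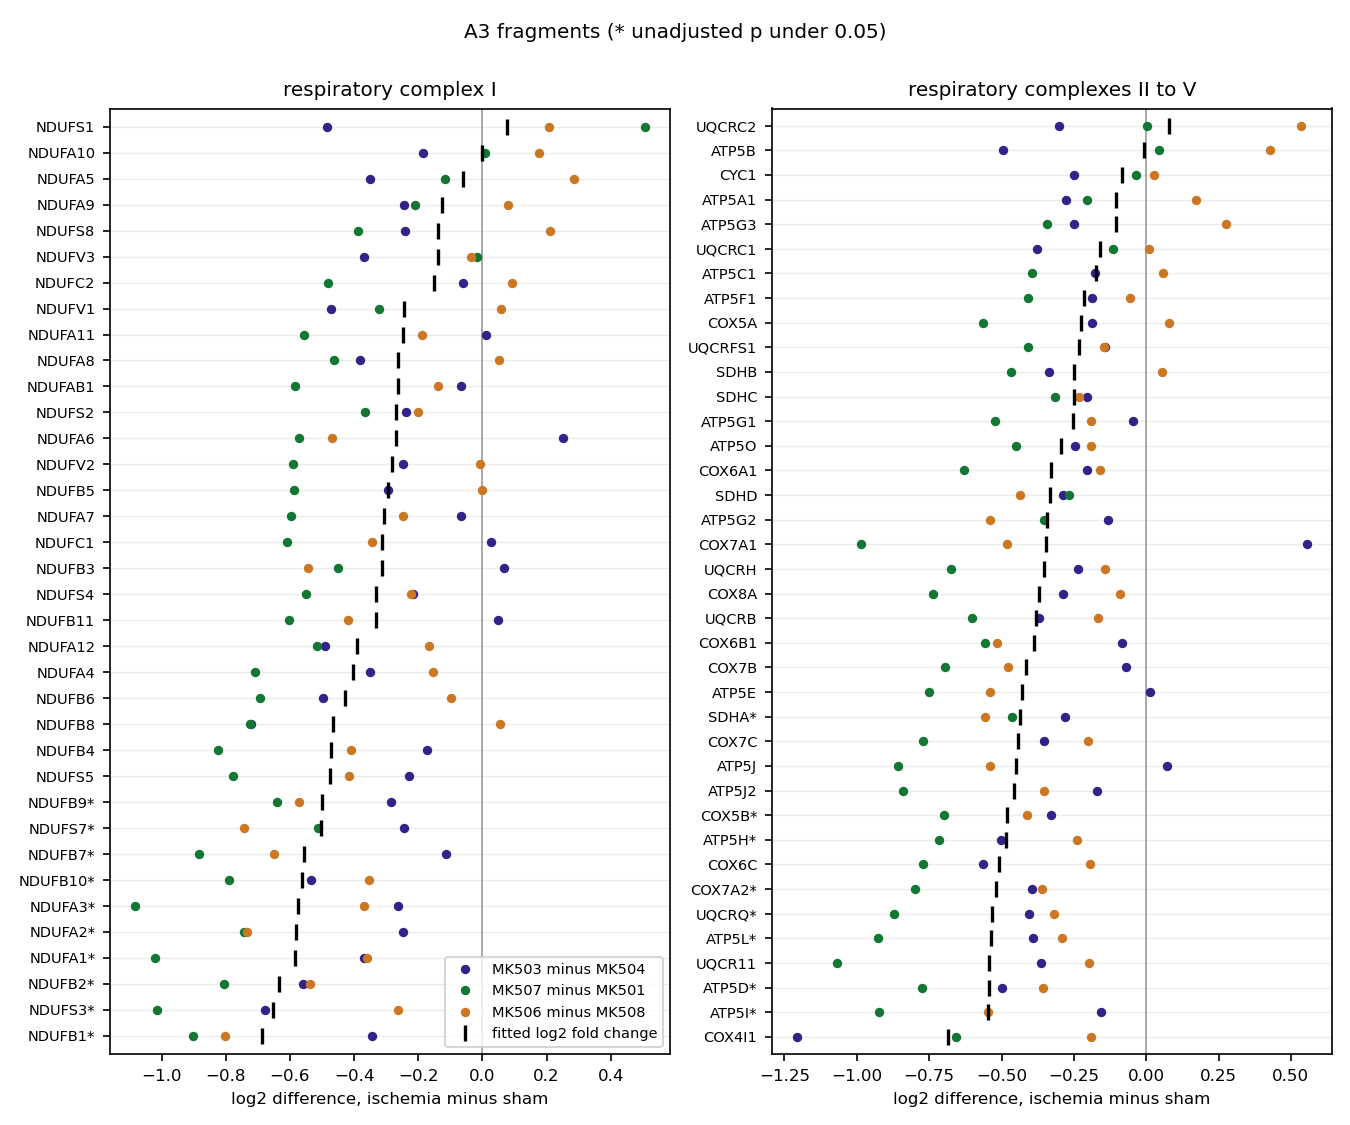
Log2 difference (ischemia minus sham) of the subunits of respiratory complex I and of complexes II to V in the 3 monkey pairs of A3 (coloured dots), with the fitted log2 fold change (black bars) and a star for an unadjusted p under 0.05. Nearly all bars lie left of 0, and the dots of MK507 minus MK501 lie farthest left for most genes.

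Protein synthesis genes showed smaller differences. Of 70 mitochondrial ribosomal proteins 58 had a lower value and 7 were lower at a nominal p, against 1.89% of all genes (median -0.22, pairs -0.15, -0.37 and -0.14). MRPL28 measured 14.4, 75.6 and 63.0 CPM in sham against 9.29, 48.9 and 51.7 CPM (-0.51, SE 0.17). Of 77 cytosolic ribosomal proteins 74 had a lower value and 0 a nominal p (median -0.29), and the pair MK504 and MK503 gave 0.05. The summed level of the latter was 38510, 37770 and 11920 CPM in MK501, MK508 and MK504, and 26310, 29990 and 12540 CPM in their partners, so the pair with high MALAT1 also had the lowest ribosomal protein level, and its part in the result was not tested. Of 31 proteasome genes 26 had a lower value and 0 a nominal p.

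The ischemia difference of myelin genes in A3 was unlike that in the other fragments. Oligodendrocytes wrap axons with membrane held together by MBP and related proteins. On the scale of all 18 libraries, the summed level of 15 such genes in A3 was 2781, 2983 and 49310 CPM in sham and 1757, 4197 and 4860 CPM in ischemia. Sham MK508 held more than any other library of the series. In A1 the same sum was 4927, 5162 and 6833 CPM in sham and 33410, 17650 and 48080 CPM in ischemia, and in A2 it was 2091, 5126 and 15300 CPM against 12920, 17040 and 21570 CPM. The ischemic library was thus above its partner in all 6 pairs of A1 and A2, and in A3 only in MK507.

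Within A3 all 15 genes had a lower value with a median of -0.90, but only ENPP2 had a nominal p, and the pairs gave -0.69, 0.59 and -3.07. MBP measured 746, 1232 and 28060 CPM in sham and 441, 2008 and 2211 CPM in ischemia (-1.15, SE 0.95). ENPP2, the lysophospholipase autotaxin, was at 88.1, 115 and 447 CPM against 50.3, 53.5 and 65.2 CPM (-1.55, SE 0.43), below sham in every library, and it is also made by choroid plexus. Without sham MK508 the median was -0.04, with 7 members higher and 8 lower. Without sham MK501 it was -1.85 with 7 members at a nominal p, and without MK507 -1.86 with 8.

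The test of the difference between fragments compared the ischemia effect in A3 with the mean of A1 and A2 over all 18 libraries, with the monkey as a block. It called 0 genes (smallest adjusted p 0.132). At a nominal p the ischemia effect was higher in A3 for 774 genes (4.73%) and lower for 1399 (8.56%). Higher or lower in A3 by this test refers to that effect and not to the level of a gene. Of the 15 myelin genes 14 were lower in A3 at a nominal p, with a median difference of -3.28 on the log2 scale. This held for 14 genes without monkey MK508 too, with a median of -2.36. DESeq2 passed 14 of them after adjustment. The 5 genes with the smallest p on the lower side were ASPA, NEU4, ELL2, TMEM88B and ARHGEF10. ASPA, an enzyme of oligodendrocytes that splits N-acetylaspartate, gave -0.86 in A3 against 2.13 in A1 and 1.63 in A2 (difference between fragments -2.79, SE 0.43). Of 14 genes of oligodendrocyte precursors 7 were lower in A3 by this test, among them the sialidase gene NEU4 (difference between fragments -2.77, SE 0.43).

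**Figure D5:**
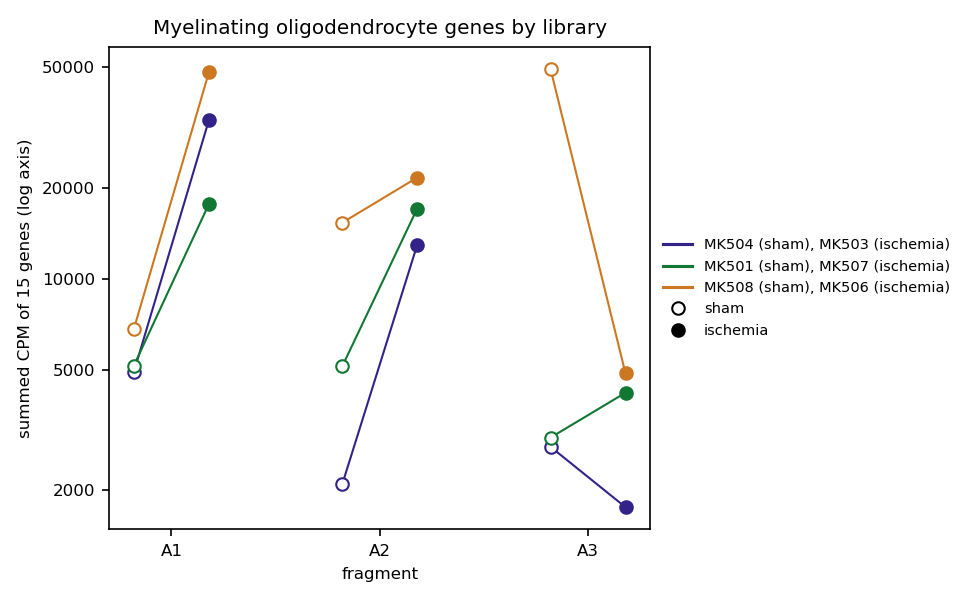
Summed CPM (log axis) of 15 genes of myelinating oligodendrocytes in the 18 libraries by fragment, with open circles for sham, filled circles for ischemia and a line for each monkey pair. Every line slopes upwards in A1 and A2, and in A3 sham MK508 stands at 49310 CPM above its partner at 4860 CPM.

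On the higher side of the same test were CACNA2D2 and WFS1, followed by STK24 and the copies MAGED4 and MAGED4B. CACNA2D2, a calcium channel subunit, measured 50.9, 75.0 and 35.0 CPM in sham A3 and 70.5, 101 and 89.3 CPM in ischemia (log2 difference 0.75, against -1.39 in A1 and -0.45 in A2, difference between fragments 1.64, SE 0.28). WFS1, a protein of the endoplasmic reticulum, was at 87.6, 160 and 121 CPM against 130, 365 and 236 CPM in A3 (0.91, against -0.76 and -0.25, difference between fragments 1.40, SE 0.28). In both genes only MK503 lay within the sham range of A3. Of 18 pan-neuronal genes 4 were higher in A3 by this test and 0 lower, against 4.73% and 8.56% of all genes. Without MK508 or without MK504 0 were higher, without MK506 1 and against A2 alone 1. Without MK501 9 were higher and without MK503 7.

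Microglia and macrophage genes had lower values in A3. Of 21 genes 18 were lower in value, against 52% of all genes, and 3 at a nominal p, against 1.89% (median -0.36, pairs -0.12, -0.17 and -0.77). CSF1R, the receptor that microglia need for survival, measured 79.9, 69.3 and 126 CPM in sham and 68.9, 49.1 and 64.5 CPM in ischemia (-0.56, SE 0.20), below sham in every library. AIF1, which encodes the marker IBA1, was at 14.5, 16.5 and 21.8 CPM against 12.7, 8.27 and 10.8 CPM (-0.74, SE 0.26), also without overlap. PTPRC, the CD45 gene, was lower in each pair (22.8, 9.68 and 9.45 CPM against 16.6, 4.99 and 5.36 CPM). Without sham MK508 the median was -0.16 and 1 gene had a nominal p, and without sham MK504 it was -0.47 and 7 had one. Without the pair block 0 had a nominal p. MHC class II genes were split, with 5 higher and 5 lower in value, and of 31 interferon response genes 22 had a lower value with 0 at a nominal p. Of 20 genes of lymphocytes and granulocytes 7 passed the filter, with 2 higher and 5 lower in value. Of these 0 were higher and 2 lower at a nominal p (median -0.29, pairs -0.85, 0.29 and 0.08).

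Astrocyte genes showed no member at a nominal p. Of 16 genes 11 had a higher value, with a median of 0.15 that turned to -0.07 without sham MK504. GFAP measured 1518, 957 and 3994 CPM in sham and 4472, 1359 and 1480 CPM in ischemia, higher in the first pairs and lower in MK506. Of 17 genes of reactive astrocytes 2 were higher and 1 lower at a nominal p, against 3.09% and 1.89% of all genes. VIM, the intermediate filament vimentin, was at 68.7, 116 and 41.4 CPM against 149, 157 and 98.5 CPM (0.94, SE 0.22), and OSMR, the oncostatin M receptor, at 15.3, 2.34 and 3.15 CPM against 30.7, 5.28 and 4.82 CPM (0.93, SE 0.24). Both were higher in each pair with overlapping groups.

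Among matrix genes of the glial scar 2 of 24 were higher at a nominal p and 0 lower, against 3.09% and 1.89% of all genes. TNC, the tenascin of stem cell niches, measured 112, 46.6 and 62.2 CPM in sham and 279, 89.3 and 69.0 CPM in ischemia (0.80, SE 0.27). TNR, tenascin-R, was at 95.4, 3.29 and 6.89 CPM against 133, 16.8 and 13.3 CPM (1.22, SE 0.38). Of 20 neural stem cell markers only TNC had a nominal p, and 10 members lay on either side of 0. Of 20 cell cycle genes CENPF (0.67) and MCM6 (0.75) were higher at a nominal p, and the pairs gave 0.72, -0.03 and -0.12.

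Ependymal genes had higher values after ischemia but differed more between pairs than between groups. Of 23 genes 21 had a higher value and 2 a nominal p (median 0.48). Their summed level was 2060, 1177 and 286 CPM in sham and 2597, 1155 and 332 CPM in ischemia, so the levels followed the pair more than the group. Without sham MK508 the median was 0.18. DNAH9, a dynein of motile cilia, measured 249, 27.1 and 5.25 CPM in sham and 316, 43.6 and 11.8 CPM in ischemia (0.72, SE 0.22). Choroid plexus genes had a median of -0.92 over 11 genes, which became -0.14 without sham MK501, the library with high TTR, and -1.96 without sham MK504. Of 20 endothelial genes 19 had a lower value and 0 a nominal p (median -0.31), and without sham MK501 the median was 0.00 with 10 on either side, while without sham MK508 it was -0.41 with 5 members at a nominal p.

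Signalling genes of the niche showed few members at a nominal p, where 3.09% of all genes were higher and 1.89% lower. Of 42 WNT pathway genes 2 were higher (LRP5, WNT3) and WNT16 lower, of 28 BMP pathway genes SMAD9 and ACVR2A were higher and BMP1 lower, and of 24 NOTCH pathway genes MAML3 was higher. SMAD9, which carries BMP signals to the nucleus, measured 17.1, 4.09 and 3.97 CPM in sham and 23.5, 10.2 and 8.61 CPM in ischemia (0.96, SE 0.26). ACVR2A, an activin and BMP receptor, was clear of overlap at 33.1, 30.1 and 24.9 CPM against 49.1, 38.3 and 37.3 CPM (0.50, SE 0.16). NRP2, a co-receptor for semaphorins and VEGF, was at 59.5, 26.0 and 18.5 CPM against 79.3, 47.3 and 63.8 CPM (1.02, SE 0.29).

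Of the 34 genes that the study names for these samples, a choice that is not independent of them, 26 had a higher value in A3 and 4 were higher at a nominal p (DLX2, TNR, TNC and SOX4), with a median of 0.27 against 0.61 in A1 and 0.74 in A2. The pairs gave 0.46, 0.62 and -0.15. Without sham MK508 the median was 0.53, with 13 members higher and 2 lower at a nominal p, and without sham MK501 it was 0.06 with 0. APLNR, the apelin receptor, measured 3.67, 1.94 and 4.34 CPM in sham and 45.4, 6.29 and 4.60 CPM in ischemia (1.79, SE 0.72), short of a nominal p. The ischemic libraries all exceeded sham, by a wide margin in MK503 and by little in MK506. JUN was at 17.4, 25.5 and 40.8 CPM against 26.6, 58.3 and 37.6 CPM (0.56, not at a nominal p, SE 0.28), higher in the first pairs only. By the test between fragments 8 of the 34 had a lower difference in A3 and 1 a higher one at a nominal p. Of all genes these were 8.56% and 4.73%. The lower count was 1 without MK506, 3 without MK503 or MK508, 2 against A2 alone and 7 against A1 alone.

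The remaining lists had at most 3 members at a nominal p in total, with medians from -0.205 to 0.182. They were MHC class II, red blood cells, cortical excitatory neurons, striatal interneurons, pericytes and smooth muscle, heat shock proteins, glycolysis and hypoxia targets, collagens, complement, cholesterol synthesis, antioxidant enzymes, and the apelin, VEGF and angiopoietin group. On library totals the medians of MHC class II, red blood cells, glycolysis and hypoxia targets, cholesterol synthesis, neural stem cell markers and the apelin, VEGF and angiopoietin group turned from below to above 0.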

How the data were processed

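RNA from 18 SVZa libraries (3 fragments of 6 monkeys) had been prepared with a TruSeq RNA kit, which does not mark strand, so overlapping genes cannot be told apart, and read as single reads on a HiSeq2000. The table deposited by the authors holds raw read counts per human RefSeq transcript carried over to the rhesus genome. The submitters' processing notes name CASAVA 1.8.2, FastQC 0.10.0, TopHat2 2.0.8 and bedtools 2.16.2. The values were not normalised before deposit, and every sample column belonged to this series. No coordinates, lengths or sequences were used here.

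For each of 19747 symbols the transcript with the highest mean CPM was kept of 29686 transcripts. Genes passing filterByExpr (16390 in A3) were scaled by TMM and tested with the robust quasi-likelihood test of edgeR 4.0.16 (R 4.3.3), with the monkey pair as a block and Benjamini-Hochberg adjustment over all genes tested. The block follows the paired design of the study's methods. The pairs came from the numbered columns of a supplementary table of the study, matched to libraries over 1647 transcripts. That a sham and an ischemic column of the same number form a pair is an inference. In A3 the deviations of paired libraries from their group means correlated at 0.845, 0.741 and 0.549 across genes, against -0.739 to 0.495 for other combinations. Deviations from a group mean cancel within each group, so part of this contrast is built in. MK501 with MK506, not a pair, gave the 0.495, close to the 0.549 of MK508 with MK506. The fit leaves 2 residual degrees of freedom. Fragments were compared by an interaction term over all 18 libraries, with the monkey as a block. Printed CPM values use edgeR's normalised library sizes, and SE is the standard error of a log2 difference. DESeq2 1.42.0, limma 3.58.1 (voom), other scalings and filters, no block and each library left out were alternatives. The test was tried on simulated counts (16160 genes), where 4.44% of unchanged genes had an unadjusted p under 0.05 and 8 of them passed the adjustment.

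Genes were named by a rule. It covered the 10 higher and 10 lower with the smallest p and the same direction in 3 pairs (mean CPM of at least 1). It also covered the 2 highest and the 2 with the smallest p of each list, the 5 on each side of the interaction test, and all genes named by the study. Many genes covered by the rule, also among those named by the study, are left out of the text or plots. Other named members were chosen after their values were seen. The members, lists and tests were chosen with earlier results of these data known. The samples are separate animals.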

Additional observations from a re-analysis of the deposited data

Results flagged for a closer look

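For microglia and macrophage genes the 3 pair medians were all below 0 in A3 and all above 0 in A1. The middle pair value was -0.173 in A3 and 0.0514 in A1. No test was run on the list as a whole. Gene by gene against A1 alone, 6 of the 21 had a lower ischemia difference in A3 at an unadjusted p under 0.05. A higher one was found for 0, with a median difference of -0.441 and 0 genes after adjustment. Of all 16353 genes 1702 were lower and 1022 higher in that test. Against the mean of A1 and A2 the microglia counts were also 6 and 0, where 8.56% of all genes were lower and 4.73% higher. The lower count was 1 without MK508, without MK507 or against A2 alone, 3 without MK504 or MK506, and 11 without MK501.

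COL11A2 was lower in ischemia in all pairs of A3 and higher in all pairs of A2, with middle pair differences of -1 and 1.23 on the log2 scale. The interaction term of A3 against A2 alone was -2.03 (SE 0.679, edgeR adjusted p = 0.672), and against the mean of A1 and A2 it was -2.30 (adjusted p = 0.139, or 0.00636 in DESeq2, and 0.101 to 0.615 with 1 monkey left out).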

How the results depend on the processing

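No gene passed the adjusted threshold with edgeR or limma voom under any alternative or with any library left out, while DESeq2 called 43 genes in A3 and 713 in the comparison of fragments. Counts at an unadjusted p moved most. Without the replicate block they were 84 higher and 24 lower, also at the study's thresholds (a log2 difference over 0.5). On library totals they were 1075 and 102 (993 and 97 at the study's thresholds). With every transcript tested they were 831 and 480 (793 and 406). That run tested 25502 transcripts in place of 16390 genes, so its counts do not compare directly with the others. With 1 library left out they ranged from 190 to 833 higher and 147 to 659 lower, and at the study's thresholds from 190 to 833 and 147 to 584. The lowest counts came without sham MK501 or MK507 and the highest without sham MK504 (higher) or MK506 (lower). A library left out takes its partner's information on the difference with it. For the ischemia difference between fragments these counts were 332 to 1417 higher and 738 to 2004 lower in A3 with 1 monkey left out. Against A2 alone they were 278 and 723. The share of nominal genes that were higher was 62%, and 47.9% without MK506, 49.2% without sham MK508 and 91.3% on library totals. The 20 genes with the smallest p kept their direction under all 15 alternatives of the A3 test, and 16 of their 300 values passed the adjusted threshold, all under DESeq2. These 20 had been picked for 1 direction in all 3 pairs, so keeping it was largely built in and does not set them apart from other genes. Of the 150 other genes covered by the naming rule 39 changed sign under at least 1 alternative, with 23 of all 170 doing so without MK508 or without MK506. Of 585 list medians 31 moved beyond the spread of the pairs. The causes were not tested. With 3 pairs, log2 differences of 1 were mostly missed by the adjusted test in simulated counts. Those had the same change in every pair, so larger differences may be missed in the real counts too. A gene not called is therefore not shown to be unchanged.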
